A study of Mus musculus with 8 samples.

Results

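The 5 Serpina1 paralogs (Serpina1a, Serpina1b, Serpina1c, Serpina1d and Serpina1e) were followed through RNA sequencing of hand-picked mouse pancreatic islets. They were matched by Ensembl identifier, and all 5 were found among 55487 identifiers. They were chosen by their expected counts and TPM (transcripts per 1000000, a share of the library corrected for transcript length) in these same libraries, so their levels are given as a description and carry no test. The study had 3 libraries of Ide-/- islets, from mice labelled as lacking the gene for insulin-degrading enzyme, and 5 libraries of Ide+/+ islets. All mice were C57BL/6J, and in both genotypes a diet with 60 kcal% fat began at 10 weeks of age and lasted 2 weeks. The labels call the libraries biological replicates without saying how many animals each holds, so the spread and p-values below describe these samples and may be partly technical.

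The Serpina1 genes encode alpha-1-antitrypsin, the serine protease inhibitor that circulates at the highest level of its family and whose best known target is neutrophil elastase. It belongs to clade A of the serpins. A protease is trapped when it cleaves the inhibitor's exposed reactive centre loop, and the sequence of that loop sets which proteases are bound. In mice the ancestral gene has multiplied into a cluster of near copies that hepatocytes express strongly and secrete, while in human islets alpha-1-antitrypsin protein has been described in subsets of endocrine cells.

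In these islets Serpina1 transcripts were low in 7 of the 8 libraries and high in Ide-/- replicate 1 alone. Summed over the 5 paralogs, the level was 57.95 TPM in Ide-/- replicate 1, 1.88 in replicate 2 and 3.26 in replicate 3, against 0.74 to 1.53 TPM with a median of 1.08 in the 5 Ide+/+ libraries. All 5 paralogs took part in the high value, and 2 of them, Serpina1c and Serpina1e, were hardly counted in any other library.

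The genes lie side by side on the minus strand of chromosome 12 in GRCm38, and their similarity limits how well reads can be divided among them. Serpina1b spans chr12:103728156-103830373 in the GENCODE model, which encloses Serpina1d at chr12:103763594-103773592. Serpina1a (chr12:103853589-103863562), Serpina1c (chr12:103894926-103904887) and Serpina1e (chr12:103946931-103958975) follow. Each has a coding sequence of 1242 bases in 5 exons of the model used here. Pairs of paralogs were identical at 96.3% to 98.5% of coding bases, and Serpina1a and Serpina1c were closest with 19 differences. In all, 86 coding positions (6.9%) varied among the 5. Of the 100-base stretches of each transcript, those found in none of the other paralogs made up 42.0% for Serpina1a, 75.4% for Serpina1b, 41.5% for Serpina1c, 73.7% for Serpina1d and 81.8% for Serpina1e. The deposited counts divide shared reads by a model, so the division between Serpina1a and Serpina1c is the least certain and the sum is the firmer quantity.

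The paralogs differ most where the reactive centre loop is encoded. The 60-base window with the most variable positions covers coding bases 1101 to 1160, inside an exon, and holds 18 variable positions where 4.15 would be the average. The 5 windows are printed 5′ to 3′ from the GRCm38 transcripts, with capitals at the positions that vary among the paralogs, because this stretch is where reads can be told apart and where the encoded inhibitors differ:
Serpina1a (chr12:103853757-103853816): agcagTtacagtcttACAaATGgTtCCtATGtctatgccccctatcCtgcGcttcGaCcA
Serpina1b (chr12:103728324-103728383): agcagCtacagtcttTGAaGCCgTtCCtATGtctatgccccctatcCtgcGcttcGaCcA
Serpina1c (chr12:103895094-103895153): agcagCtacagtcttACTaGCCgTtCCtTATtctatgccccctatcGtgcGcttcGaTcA
Serpina1d (chr12:103763762-103763821): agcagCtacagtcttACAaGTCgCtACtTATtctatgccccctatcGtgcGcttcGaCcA
Serpina1e (chr12:103947100-103947159): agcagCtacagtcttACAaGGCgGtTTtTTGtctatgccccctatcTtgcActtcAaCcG

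The promoter stretch shown here varies less than that coding window, which was chosen as the most variable one. Its share of variable positions is above the 6.9% of the whole coding sequence. The RefSeq promoter regions on GRCm38.p6, which run from 250 bases before to 50 after the annotated start, were matched for all 5 paralogs. In 4 of them stands TAAATA, which resembles a TATA box and is not in the Serpina1d region (searched on either strand). In the windows below, TAAATA lies after the annotated start in Serpina1a, Serpina1b and Serpina1c, and before it in Serpina1e. Among 32851 RefSeq promoters, TAAATA occurs in 13.7%. The aligned windows below, printed 5′ to 3′ with this motif in capitals, are shown because they contain the place where Serpina1d departs from the other paralogs, and they have the same base in all 5 genes at 43 of 50 positions:
Serpina1a (chr12:103863585-103863634): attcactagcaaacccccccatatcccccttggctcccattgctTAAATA
Serpina1b (chr12:103738160-103738209): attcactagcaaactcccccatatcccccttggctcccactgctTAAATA
Serpina1c (chr12:103904922-103904971): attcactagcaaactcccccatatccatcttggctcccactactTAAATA
Serpina1d (chr12:103773594-103773643): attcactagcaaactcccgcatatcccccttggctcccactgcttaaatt
Serpina1e (chr12:103956920-103956969): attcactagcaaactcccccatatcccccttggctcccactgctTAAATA
The Serpina1f region, from the next clade A gene in the cluster, does not hold the motif. A letter match describes the sequence only.

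Facts of the libraries that bear on the values come first. Total counts ran from 7143424 to 17445976 in Ide-/- libraries and from 19277303 to 33371662 in Ide+/+ libraries, so a count of 0 allows up to 0.172 to 0.42 counts per 1000000 counts (CPM) in Ide-/- libraries and 0.0899 to 0.156 CPM in Ide+/+ libraries (3 counts each, counting error only). Ide was counted 6, 7 and 4 times in Ide-/- replicates 1, 2 and 3, against 256 to 765 times in Ide+/+ libraries, as labelled. Transcripts of 30 markers of acinar cells, the enzyme-secreting cells of the exocrine pancreas, took 0.799% to 1.78% of counts in Ide-/- libraries and 26.3% to 45.5% in Ide+/+ libraries. All mice are labelled female, yet the Y-linked gene Ddx3y was counted 778 to 2139 times in Ide-/- libraries and 503 to 1581 times in Ide+/+ replicates 2 to 5. Ide+/+ replicate 1 had 0 Ddx3y counts and 692 counts of Xist, the transcript of inactivated X chromosomes, which had at most 10.96 counts elsewhere. With Ide+/+ replicate 1 left out, all genes named below as called kept their calls. Ide+/+ replicates 2 and 3 stood closer to each other than any other pair of libraries, with a chi-square per degree of freedom of 6.31 against 64.9 for the next pair, but differed beyond sampling noise and were kept as 2 samples.

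Serpina1d, the paralog with the highest level in every Ide+/+ library, had 17.65, 0.58 and 1.57 TPM in Ide-/- replicates 1, 2 and 3, against 0.73, 0.82, 1.03, 0.5 and 0.69 TPM in Ide+/+ replicates 1 to 5. In TPM, Ide-/- replicate 1 stood 11.2 times above the next library, and Ide-/- replicate 2 lay inside the Ide+/+ range. With TMM scaling, a between-library scaling described below, Serpina1d had 15.4, 0.547 and 1.88 CPM in Ide-/- replicates 1, 2 and 3. The Ide+/+ libraries had 0.965 to 2.19 CPM, so Ide-/- replicate 2 lay below all of them and replicate 3 inside their range. The counts behind these values were 552.23, 13.44 and 20.51 in Ide-/- replicates 1, 2 and 3, and 16.45 to 37.9 in Ide+/+ libraries.

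Serpina1a had 7.97, 0.6 and 0.92 TPM in Ide-/- replicates 1, 2 and 3, against 0.12, 0.33, 0.21, 0.07 and 0.1 TPM in Ide+/+ replicates 1 to 5. Serpina1b had 9.15, 0.64 and 0.59 TPM in the same Ide-/- libraries, against 0.23, 0.26, 0.15, 0.17 and 0 TPM in the Ide+/+ libraries. For both paralogs every Ide-/- library lay above every Ide+/+ library in TPM, as did 39.3% of all tested genes on that scale. With TMM scaling, on which 17.4% of tested genes did so, Serpina1b overlapped, with 0.601 CPM in Ide-/- replicate 2 and 0.673 CPM in Ide+/+ replicate 1. Those smaller differences rest on few reads, with 11.63 and 13.57 expected counts of Serpina1a and 7.69 and 14.78 of Serpina1b in the 2 libraries.

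Serpina1c and Serpina1e behaved otherwise. Serpina1c had 12.6 TPM and 383.99 counts in Ide-/- replicate 1 and 0 counts in Ide-/- replicates 2 and 3, against 0, 0, 2.38, 0 and 0.1 counts in Ide+/+ replicates 1 to 5. Serpina1e had 10.58 TPM and 321.64 counts in Ide-/- replicate 1, with 1.21 and 2.17 counts in Ide-/- replicates 2 and 3, against 0 to 2.34 counts in Ide+/+ libraries. Outside Ide-/- replicate 1, neither paralog passed 3 counts in any library. Serpina1a, Serpina1b and Serpina1d passed the low-count filter of the comparison across genes (3 of 5), and Serpina1c and Serpina1e did not.

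**Figure D1:**
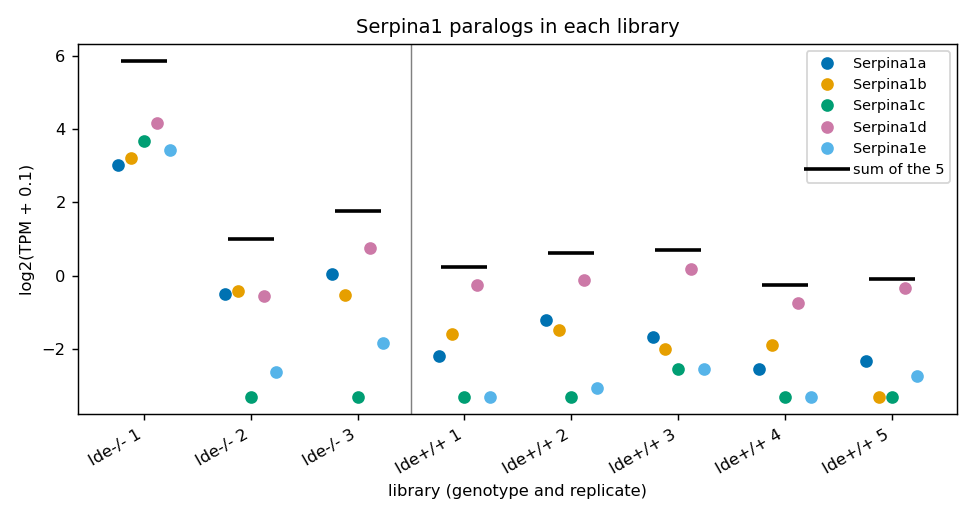
Level of each Serpina1 paralog (points) and of their sum (black bars) in each library, as log2(TPM + 0.1). Ide-/- libraries are left of the grey line and Ide+/+ libraries right of it. All 5 paralogs are high in Ide-/- replicate 1, where the sum is 57.95 TPM. Elsewhere Serpina1d leads or is level with Serpina1a and Serpina1b, and Serpina1c is at or near 0.

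The makeup of the Serpina1 transcripts also differed. Of 1787 summed counts in Ide-/- replicate 1, Serpina1d made up 30.9%, Serpina1c 21.5%, Serpina1e 18.0%, Serpina1b 16.0% and Serpina1a 13.6%, so no paralog held a majority. In Ide-/- replicates 2 and 3 together, with 85 counts, Serpina1d made up 39.9%, Serpina1a 29.6%, Serpina1b 26.4%, Serpina1e 3.98% and Serpina1c 0%. In the 5 Ide+/+ libraries together, with 195.69 counts, Serpina1d made up 65.8%, Serpina1a 15.4%, Serpina1b 15.1%, Serpina1e 2.40% and Serpina1c 1.27%. For Serpina1c the 95% exact Clopper-Pearson interval of its share was 19.6% to 23.5% in Ide-/- replicate 1, and the upper bounds were 8.22% and 8.41% in Ide-/- replicates 2 and 3 and between 5.44% and 16.8% in the Ide+/+ libraries. These intervals cover counting error only, not the division of shared reads, and since the paralogs were chosen on these counts they describe and do not test. Serpina1a, whose transcript is closest to that of Serpina1c, had the smallest share in Ide-/- replicate 1 and kept 8% to 32.6% of the counts in the other 7 libraries.

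**Figure D2:**
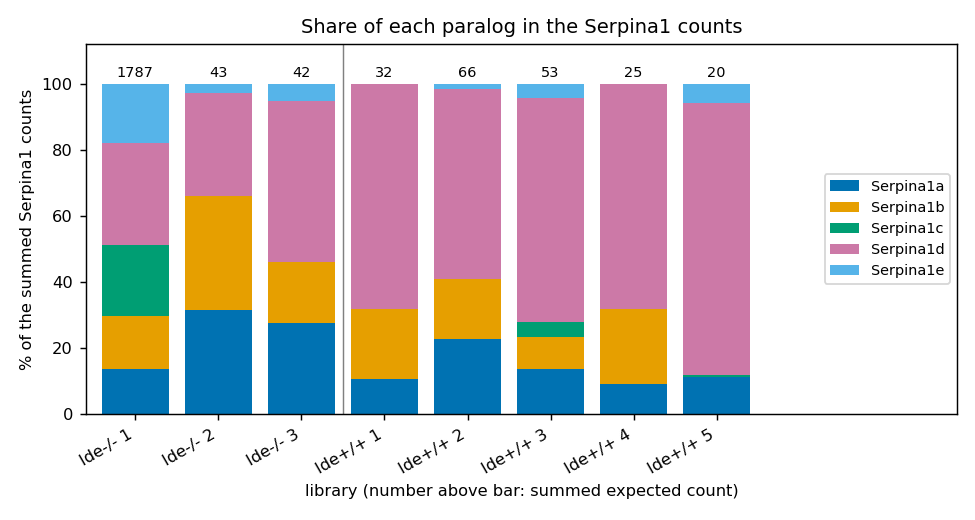
Share of each paralog in the summed Serpina1 expected counts, in percent, per library, with the summed count above each bar. Serpina1c (green) and Serpina1e (light blue) make up 21.5% and 18.0% in Ide-/- replicate 1 and little elsewhere, and Serpina1d leads in each Ide+/+ library.

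The summed level depended on how libraries were scaled, with TMM factors of 0.405 to 2.06. In CPM of all counts the sum was 102.4, 3.25 and 5.88 in Ide-/- replicates 1, 2 and 3, against 1.3, 1.98, 2.15, 0.943 and 1.04 in Ide+/+ replicates 1 to 5. With TMM scaling, which evens out the bulk of genes between libraries, it was 49.8, 1.75 and 3.85 CPM in the Ide-/- libraries, against 3.21, 1.68, 1.87, 1.47 and 2.15 CPM in the Ide+/+ libraries. Ide-/- replicate 1 was 17.4 times the next library in the first case and 12.9 times in the second. Ide-/- replicate 2 lay above every Ide+/+ library without scaling and inside their range with it, and Ide-/- replicate 3 stayed above them on both scales. Per 1000000 counts outside the acinar list, a scale added after the data were seen, the sum was 103.3, 3.30 and 5.99 in Ide-/- replicates 1, 2 and 3, against 1.63 to 2.93 in Ide+/+ libraries.

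The group means therefore speak mostly of Ide-/- replicate 1. The sum averaged 18.5 ± 27.1 TMM-scaled CPM (SD, n = 3) over the Ide-/- libraries, against 2.08 ± 0.679 (SD, n = 5) over the Ide+/+ libraries, a ratio of 8.89 that was 1.35 without Ide-/- replicate 1. In TPM the means were 21.0 ± 32.0 (SD, n = 3) in Ide-/- libraries and 1.12 ± 0.349 (SD, n = 5) in Ide+/+ libraries, and the ratio was 18.7, or 2.29 without that library. The difference of the means of log2(TMM CPM + 0.5), Ide-/- minus Ide+/+, was 1.65 with a pooled SD within groups of 1.39. It dropped to 0.32 when Ide-/- replicate 1 was left out, and was 1.79 when Ide+/+ replicate 1 was left out, the library that differed in Ddx3y and Xist. The median of all 16266 tested genes shifted by 0.02 with TMM scaling, 1.14 in CPM of all counts and 0.63 in TPM on the same log2 scale. Relative to that median the Serpina1 difference was 1.63, 1.67 and 1.71 on these 3 scales, and 0.30, 0.30 and 0.36 without Ide-/- replicate 1. List medians depend on the same shift. In CPM of all counts the median differences of the tested clade A serpins, other serpins, promoter factors, folding and export genes and acute-phase genes described below were 0.91, 0.72, 0.50, 0.80 and 0.21, with the opposite sign to TMM scaling. Relative to the median gene they were -0.23, -0.42, -0.64, -0.34 and -0.93. In bulk RNA, more cells of a type and more RNA per cell cannot be told apart.

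Other clade A serpins, mostly secreted by the liver, were next examined in a list of 21 genes. Across all 16266 tested genes, the quasi-likelihood F test of edgeR with Benjamini-Hochberg adjustment called 1699 higher (10.4%) and 1727 lower (10.6%) in Ide-/- islets. Of the 21 clade A genes only 3 passed the low-count filter, and 4 had 0 counts in all 8 libraries. Serpina7 rose, Agt fell and Serpina10 passed no threshold, and the median log2 fold change of the 3 was -0.45, against -0.01 for all tested genes.

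Serpina7, which encodes the thyroxine carrier of plasma and lies on the X chromosome, had 59.8, 21.7 and 27.2 TMM-scaled CPM in Ide-/- replicates 1, 2 and 3, against 12.3, 8.73, 9.24, 13.4 and 9.23 in Ide+/+ replicates 1 to 5. The groups did not overlap, as for 17.4% of tested genes higher in this way, and the log2 fold change was 1.78 (SE 0.30, edgeR adjusted p = 0.00256). Unlike the Serpina1 sum on the same scale, it was higher in all 3 Ide-/- libraries than in any Ide+/+ library, though again highest in replicate 1. Agt, which encodes angiotensinogen, averaged 3.29 ± 1.05 TMM-scaled CPM (SD, n = 3) over Ide-/- libraries, against 10.5 ± 3.43 (SD, n = 5) over Ide+/+ libraries, a log2 fold change of -1.64 (SE 0.30, edgeR adjusted p = 0.00398). Serpina10, an inhibitor of coagulation factor Xa, had 19.8 to 26.8 CPM in Ide-/- libraries and 25.0 to 46.0 in Ide+/+ libraries, with an edgeR adjusted p of 0.185.

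Serpina3k, a liver-secreted neighbour on chromosome 12, was like Serpina1c high in Ide-/- replicate 1 and at 0 in replicate 2. Unlike Serpina1c, Serpina3k was also counted in Ide-/- replicate 3. It had 1441.2 counts (82.6 CPM of all counts) in Ide-/- replicate 1, 0 in replicate 2 and 18 (2.52 CPM) in replicate 3, against 0 in each of the 5 Ide+/+ libraries. Serpina3m had 41.8 counts in Ide-/- replicate 1, 0 in replicates 2 and 3, and 0 in the Ide+/+ libraries apart from replicate 2 with 0.03 CPM. Both missed the low-count filter and were chosen for mention after their values were seen. Serpina1f, the clade A gene next to the Serpina1 cluster, had 1 count in Ide-/- replicate 1 and 0 in the other 7 libraries.

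Many transcripts that mark hepatocytes were high in the same library. A list of 24 hepatocyte genes was compared, and 16 of them averaged under 1 CPM over the 7 libraries other than Ide-/- replicate 1. All 16 were counted in Ide-/- replicate 1, 7 in replicate 2 and 12 in replicate 3, against 5 to 8 in Ide+/+ libraries. Their summed level was 184.3, 5.44 and 7.37 CPM of all counts in Ide-/- replicates 1, 2 and 3, against 0.934 to 2.94 CPM in Ide+/+ libraries. For these 16 the order of the Ide-/- libraries was that of the Serpina1 sum. The other 8 summed to 140.8, 144.9 and 101.4 CPM in Ide-/- replicates 1, 2 and 3, against 44.6 to 86.4 CPM in Ide+/+ libraries. For those 8, Ide-/- replicate 2 was highest. The 16 were separated from the other 8 by their values, so both sums are a description.

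Mup3 and Mup20, which encode major urinary proteins made by the liver, had 49.998 and 35.7 CPM in Ide-/- replicate 1, 0 in replicate 2, and 1.82 and 0.56 CPM in replicate 3, against 0 in every Ide+/+ library. Alb, which encodes serum albumin, had 17.9, 1.89 and 0.70 CPM in Ide-/- replicates 1, 2 and 3, against 0.366 to 1.02 CPM in Ide+/+ libraries. Apoa1, the main protein of high-density lipoprotein, had 19.2, 0.378 and 0.98 CPM in the Ide-/- libraries and 0.06 to 0.123 CPM in Ide+/+ libraries. Fabp1, Cyp3a11, Mup3 and Mup20 had 0 counts in Ide-/- replicate 2 and in all 5 Ide+/+ libraries, but were counted in Ide-/- replicate 3. Cps1, of the urea cycle, and Hpd, of tyrosine breakdown, had 1 and 6 counts in Ide-/- replicate 1 and 0 elsewhere. The Mup and Serpina3 genes are families of near copies like Serpina1, so the division of counts within each family is uncertain.

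Counts that appeared in 1 library only showed the same library. In all, 11 genes reached 1 CPM in Ide-/- replicate 1 with 0 counts in the other 7 libraries, while the same search gave 1 gene for Ide+/+ replicate 2 and 0 for each of the other libraries. The 11 were Mup14, Mup9, Mug1, Fga, Mup16, Pon1, Mup18, Cfhr2, Mup21, Ugt3a2 and Cyp2c67, led by Mup14 with 491 counts. They include 5 major urinary protein genes and the fibrinogen alpha chain. Serpina1 and these liver transcripts moved together in Ide-/- replicate 1, and their part in the Serpina1 result was not tested.

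**Figure D3:**
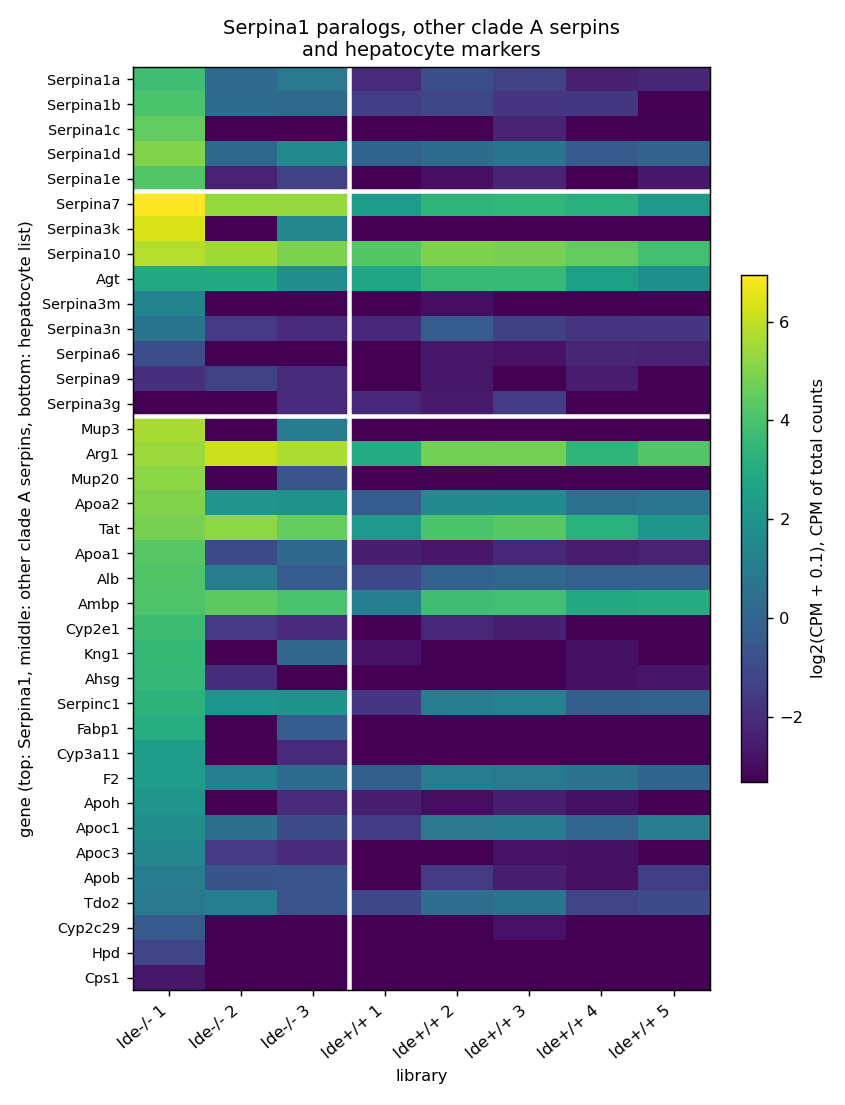
Level per library of the 5 Serpina1 paralogs (top block), other clade A serpins with at least 10 counts over all libraries (middle) and the hepatocyte list genes reported here (bottom), as log2(CPM of all counts + 0.1), with Ide-/- libraries left. Serpina3k, Mup3 and Mup20 share with Serpina1c a bright first column and dark columns in Ide-/- replicate 2 and all Ide+/+ libraries, while Arg1, Tat and Ambp are present in every library.

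The share of counts from all 24 hepatocyte genes was 0.0325%, 0.0150% and 0.0109% in Ide-/- replicates 1, 2 and 3, against 0.00456% to 0.00894% in Ide+/+ libraries. The difference had an exact two-sided permutation p of 0.0179, the smallest that 3 against 5 libraries allow, and an adjusted p of 0.0306 over 12 marker lists. The beta, delta, neutrophil and intestinal epithelium lists (higher) and the acinar and duct lists (lower) had the same p and adjusted p. The result is therefore not particular to the hepatocyte list. The hepatocyte difference was no longer called when acinar counts were taken out of the total (exact permutation test, adjusted p = 0.0918). With 1 library left out the adjusted p of the exact permutation test ran from 0.0429 to 0.0816, and the smallest p possible is then 0.0286 or 0.0476 before adjustment. Of the 11 hepatocyte genes that passed the low-count filter, 0 were called higher by edgeR (4 at an unadjusted p under 0.05, 1 with DESeq2) and 1 lower, against backgrounds of 10.4% and 10.6%, and the median log2 fold change was 0.32.

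Endocrine marker lists differed in which Ide-/- library was highest. The 8 delta cell markers took 0.596%, 1.31% and 0.751% of counts in Ide-/- replicates 1, 2 and 3, against 0.0844% to 0.296% in Ide+/+ libraries, and the 11 alpha cell markers took 6.09%, 10.0% and 5.00% in the Ide-/- libraries, against 1.65% to 6.65% in Ide+/+ libraries. Delta and alpha lists were highest in Ide-/- replicate 2, where the Serpina1 sum was 1.88 TPM. The 5 markers of PP cells, which make pancreatic polypeptide, took 2.35%, 2.23% and 3.29% in the Ide-/- libraries, against 0.199% to 1.70% in Ide+/+ libraries, with the highest share in Ide-/- replicate 3. The 12 beta cell markers were highest in Ide-/- replicate 1, as Serpina1 was, and took 22.0%, 15.6% and 13.5% in Ide-/- replicates 1, 2 and 3, against 1.72% to 7.82% in Ide+/+ libraries, and their part in the Serpina1 result was not tested. None of the 12 was called in either direction by edgeR (1 lower at an unadjusted p under 0.05, 0 with DESeq2). The 16 macrophage markers took 0.00853% to 0.00905% in Ide-/- libraries and 0.005% to 0.0207% in Ide+/+ libraries. The 12 duct markers took 0.0475% to 0.0600% in Ide-/- libraries and 0.0775% to 0.137% in Ide+/+ libraries, and the 12 endothelial markers took 0.0496% to 0.0580% in Ide-/- libraries and 0.00446% to 0.0478% in Ide+/+ libraries. In the macrophage, duct and endothelial lists, Ide-/- replicate 1 lay close to the other Ide-/- libraries. Within the Ide+/+ group, replicates 2 and 3 had the lowest acinar shares, 26.3% and 26.7%, and the highest Serpina1 sums of the group in TPM, 1.43 and 1.53. With TMM scaling the order turned, and Ide+/+ replicate 1, with the highest acinar share (45.5%), had the highest sum of the group (3.21 CPM, against 1.68 and 1.87 CPM in replicates 2 and 3).

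Acute-phase genes, which the liver induces in inflammation and which in humans include SERPINA1, gave a split picture. Of 25 listed genes 10 passed the filter, 0 rose (also 0 at an unadjusted p under 0.05 and with DESeq2) and 4 fell, against a background of 10.6%, and the median log2 fold change was -1.09. Those that fell were Itih4, Crp, Il6st and Cp. Itih4, an inter-alpha-trypsin inhibitor heavy chain, had 1.53, 0.447 and 0.275 TMM-scaled CPM in Ide-/- replicates 1, 2 and 3, against 12.1 to 28.4 in Ide+/+ libraries (log2 fold change -4.55, SE 0.50, edgeR adjusted p = 0.000463). Crp, the C-reactive protein gene, had 0.418, 0.203 and 0.0917 CPM in the Ide-/- libraries, against 0.501 to 3.86 in Ide+/+ libraries (log2 fold change -3.04, edgeR adjusted p = 0.00597). Il6st, the shared receptor chain for interleukin-6 signals, had a log2 fold change of -0.72 (edgeR adjusted p = 0.00958), and Cp, the copper carrier ceruloplasmin, -1.93 (edgeR adjusted p = 0.0170). The Il6st call was lost without Ide-/- replicate 2 (edgeR adjusted p = 0.0553) and its difference was 0.62 with the opposite sign in CPM of all counts, and the Cp call was lost when any 1 of the 3 Ide-/- libraries was left out (edgeR adjusted p = 0.0614 to 0.0715).

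Other acute-phase genes of the list were counted mainly in Ide-/- replicate 1. Fgb, the fibrinogen beta chain, had 15.2, 0.151 and 0.98 CPM of all counts in Ide-/- replicates 1, 2 and 3, against 0.0406 to 0.208 CPM in Ide+/+ libraries. Fgg, the gamma chain, had 13.8, 0 and 0.28 CPM in the Ide-/- libraries, against 0 to 0.0519 CPM in Ide+/+ libraries. Hp, which encodes haptoglobin, had 7.39, 0.378 and 0.28 CPM in the Ide-/- libraries, against 0 to 0.302 CPM in Ide+/+ libraries. Of the serum amyloid genes, Saa1, Saa2 and Saa4 were near 0 everywhere: Saa1 had 7 counts and Saa4 14 counts in Ide-/- replicate 1, and Saa2 had 0 in all 8 libraries. Socs3, a feedback inhibitor of the interleukin-6 pathway, had 1.34, 1.46 and 1.74 TMM-scaled CPM in the Ide-/- libraries, against 0.644 to 1.86 in Ide+/+ libraries (edgeR adjusted p = 0.865). The fibrinogen, haptoglobin and serum amyloid genes were chosen for mention after their values were seen.

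Factors known to act on the liver promoter of alpha-1-antitrypsin were mostly present in both genotypes. Of 13 listed genes 12 passed the filter, and Foxa1 was listed at 0 in all libraries. Of the 12, 0 rose (edgeR; 1 at an unadjusted p under 0.05 and with DESeq2, Cebpd) and 6 fell (Onecut1, Foxa3, Gata4, Cebpa, Stat3 and Hnf4a), against a background of 10.6% lower, with a median log2 fold change of -0.72. Foxa3, a forkhead factor of liver and gut endoderm, had 2.06, 2.03 and 1.83 CPM in the Ide-/- libraries, against 5.40 to 14.9 in Ide+/+ libraries (log2 fold change -2.05, SE 0.35, edgeR adjusted p = 0.00274).

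Onecut1, a homeodomain factor of liver and pancreas development, had 0.149, 0.325 and 0.367 TMM-scaled CPM in Ide-/- replicates 1, 2 and 3, against 1.15 to 3.24 in Ide+/+ libraries (log2 fold change -3.30, edgeR adjusted p = 0.00102). Gata4, a zinc-finger factor kept in adult acinar cells, had 0.0557 to 0.367 CPM in Ide-/- libraries and 0.995 to 3.81 in Ide+/+ libraries (log2 fold change -4.04, edgeR adjusted p = 0.00352). Cebpa, a leucine-zipper factor of hepatocytes, had 0.306, 0.325 and 0.458 CPM in Ide-/- replicates 1, 2 and 3, against 0.789 to 2.06 in Ide+/+ libraries (log2 fold change -1.97, edgeR adjusted p = 0.0131). The Cebpa call was lost without Ide-/- replicate 1 (edgeR adjusted p = 0.0647) or replicate 2 (edgeR adjusted p = 0.0628). None of Foxa3, Onecut1, Gata4 and Cebpa was as much as 1.5 times higher in Ide-/- replicate 1 than in the other Ide-/- libraries, whereas each Serpina1 paralog was. The acinar share, 0.799% to 1.78% in Ide-/- libraries and 26.3% to 45.5% in Ide+/+ libraries, moved with the fall of promoter factor, acute-phase and folding genes, and its part in them was not tested.

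Genes that fold, check and export secreted glycoproteins such as alpha-1-antitrypsin were measured in all libraries. All 22 passed the filter, 0 rose (also 0 at an unadjusted p under 0.05 and with DESeq2) and 4 fell, with a median log2 fold change of -0.63 and a background of 10.6% lower. Sel1l, the adaptor of the ubiquitin ligase that removes misfolded proteins from the endoplasmic reticulum, averaged 85.3 ± 3.94 TMM-scaled CPM (SD, n = 3) over Ide-/- libraries, against 347.8 ± 147.2 (SD, n = 5) over Ide+/+ libraries, a log2 fold change of -2.03 (SE 0.38, edgeR adjusted p = 0.00442). Os9, a lectin of the same complex, had a log2 fold change of -1.33 (edgeR adjusted p = 0.0129), Edem2, a mannosidase that marks glycoproteins for removal, -1.49 (edgeR adjusted p = 0.0161), and Mcfd2, the partner of the cargo receptor Lman1, -1.32 (edgeR adjusted p = 0.0209). Lman1, the receptor itself, had 128.5 to 235.3 CPM in Ide-/- libraries and 171.4 to 441.7 in Ide+/+ libraries (edgeR adjusted p = 0.412). The calls of Os9 and Edem2 were lost without Ide-/- replicate 2 or 3 (edgeR adjusted p = 0.0613 to 0.0815). The Mcfd2 call was lost when any 1 of the 3 Ide-/- libraries or Ide+/+ replicate 4 was left out (edgeR adjusted p = 0.0529 to 0.0849). In CPM of all counts the log2 differences were -0.55 for Sel1l, -0.04 for Os9 and -0.03 for Edem2. The Mcfd2 difference was then 0.15 with the opposite sign.

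Proteases that alpha-1-antitrypsin can bind split into those of neutrophils and those of the pancreas. The neutrophil enzymes Elane and Ctsg had 0 counts in all 8 libraries, and Prtn3 was counted in Ide+/+ replicate 2 only, at 0.06 CPM. Of 14 listed proteases 9 passed the filter, 0 rose (also 0 at an unadjusted p under 0.05 and with DESeq2) and 8 fell against a background of 10.6% lower, with a median log2 fold change of -6.20. Ctrl, a chymotrypsin-like digestive enzyme, had 96.2, 219.9 and 212.1 TMM-scaled CPM in Ide-/- replicates 1, 2 and 3, against 8586 to 48907 in Ide+/+ libraries (log2 fold change -7.08, SE 0.98, edgeR adjusted p = 0.000929). The chymotrypsinogen gene Ctrb1 (-6.63) and the elastase genes Cela3b (-5.97) and Cela1 (-6.18) had like log2 fold changes, with edgeR adjusted p of 0.000839, 0.000843 and 0.000989. These 4 are also members of the acinar marker list, of which 30 of 30 genes fell.

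Most of the remaining serpins that were tested, 11 genes, were not called in either direction. Of 23 listed genes 14 passed the filter, 0 rose (edgeR; 1 at an unadjusted p under 0.05 and with DESeq2, Serpinc1) and 3 fell, against a background of 10.6%, with a median log2 fold change of -0.44. Serpini2, an acinar serpin, had 1.98, 7.69 and 4.68 TMM-scaled CPM in Ide-/- replicates 1, 2 and 3, against 238.0 to 1682 in Ide+/+ libraries (log2 fold change -7.27, SE 0.91, edgeR adjusted p = 0.000637). Serpinb1a, an intracellular inhibitor of neutrophil elastase, had 0.613, 1.75 and 1.56 CPM in the Ide-/- libraries, against 19.8 to 114.8 in Ide+/+ libraries (log2 fold change -5.41, SE 0.74, edgeR adjusted p = 0.000885). Serpinb9, an inhibitor of granzyme B, had 4.23 to 5.37 CPM in Ide-/- libraries and 6.89 to 12.9 in Ide+/+ libraries (log2 fold change -0.94, SE 0.24, edgeR adjusted p = 0.0172), which did not hold when Ide-/- replicate 2 or 3 was left out (edgeR adjusted p = 0.0851 and 0.0627), and in CPM of all counts its difference was 0.40 with the opposite sign. Serpinc1, which encodes antithrombin and is also made in liver, had 4.75, 2.20 and 2.39 CPM in Ide-/- replicates 1, 2 and 3, against 0.523 to 1.88 in Ide+/+ libraries (log2 fold change 1.14, edgeR adjusted p = 0.0539). It lies just outside the threshold and is called higher by DESeq2 (adjusted p = 0.0281). It was chosen for mention after its values were seen.

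**Figure D4:**
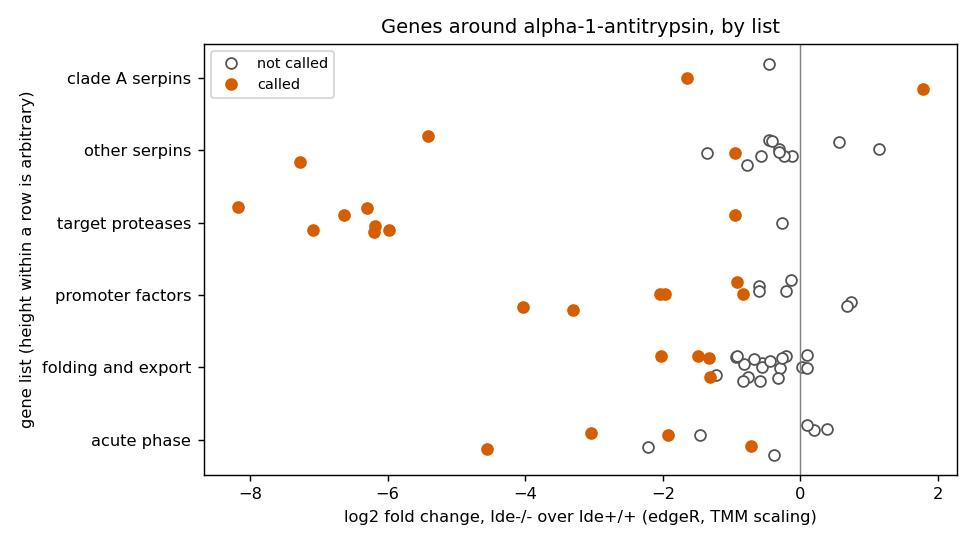
Log2 fold change, Ide-/- over Ide+/+, of each tested gene in 6 lists around alpha-1-antitrypsin, with called genes filled (edgeR adjusted p under 0.05). Serpina7 at 1.78 is the only filled point right of 0, and 7 target proteases and 2 other serpins lie below -5.

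The genes whose pattern was most like the Serpina1 sum were sought among 13255 tested genes that averaged 1 CPM or more, by Pearson's r of log2(TMM CPM + 0.5) over the 8 libraries. The 6 highest were Apoa2 (0.926), Tnks (0.922), Me3 (0.878), Alb (0.866), Gm2115 (0.861) and Pms1 (0.854), and 0 genes reached 0.95. Apoa2, a protein of high-density lipoprotein made in liver, had 15.3, 2.16 and 2.38 TMM-scaled CPM in Ide-/- replicates 1, 2 and 3, against 1.70 to 3.22 in Ide+/+ libraries. Tnks, the ADP-ribosylating enzyme tankyrase, had 14.3, 11.6 and 12.1 CPM in the Ide-/- libraries, against 10.9 to 11.6 in Ide+/+ libraries, so Ide-/- replicate 1 was highest by a small margin. Me3, a mitochondrial malic enzyme, had 7.11, 3.27 and 3.58 CPM in the Ide-/- libraries, against 1.78 to 3.00 in Ide+/+ libraries. Without Ide-/- replicate 1, the r over 7 libraries was -0.20 for Apoa2, 0.17 for Tnks, 0.50 for Me3, -0.52 for Alb, 0.11 for Gm2115 and 0.28 for Pms1. The likeness rests on that library.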

How the data were processed

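RNA was sequenced from 8 islet samples (3 Ide-/- and 5 Ide+/+), and the submitters' processing notes name STAR 2.7.1a, RSEM 1.3.1 and the build GRCm38. The release of the annotation and the strandedness of counting are not given in the sources used here. Per gene, the authors deposited an expected count (an estimate in which a model divides shared reads among genes) and a TPM value. Symbols and positions came from GENCODE M21, which held 55227 of 55487 identifiers, and 260 had no symbol.

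Expected counts were rounded for the tests. The comparison used edgeR 4.0.16 in R 4.3.3 (quasi-likelihood F test, robust dispersion, TMM factors of 0.405 to 2.06, default filter with a count minimum of 10 and a total of 15, genotype as the only term), with Benjamini-Hochberg adjustment over 16266 tested genes and calls at 0.05. Steps were tested on simulated data. CPM is unscaled or TMM-scaled as stated. Marker shares were compared by an exact two-sided permutation test over 56 splits. Alternatives were DESeq2 1.42.0, RLE scaling, no filter, limma 3.58.1 on log2(TPM + 1), each library left out, other offsets and denominators, a replicate block and Ide+/+ replicates 2 and 3 counted as 1.

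The members, gene lists and marker lists were chosen with earlier results of these data known. The genes to name were, by rule, the 5 paralogs, Ide, the 6 genes most like their sum, and from each list the 4 (or fewer) called genes with the lowest p. The listed symbols Tmem27 and Fam159b had no match. Some listed genes enter the list counts but are not reported here by name. Replicate numbers 1 to 3 occur in both genotypes, but samples of the same number did not deviate together.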

Additional observations from a re-analysis of the deposited data

Results flagged for a closer look

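Of 29 results checked for a library far from the other 4 of the Ide+/+ group, 1 stood out. Serpina1c was listed at 0.07 TPM in Ide+/+ replicate 3 and at 0 TPM in the other 4 Ide+/+ libraries. The value rests on 2.38 expected counts, and the check picks out about 1 in 20 groups by chance.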

How the results depend on the processing

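The Serpina1 difference of 1.65 (log2) kept its sign under every alternative run, from 0.32 to 2.56 with 1 library left out (without Ide-/- replicate 1 and without Ide-/- replicate 2). It was 1.64 with RLE scaling, 2.81 without scaling, 2.32 per 1000000 non-acinar counts (added after the data were seen), 2.34 in TPM, 1.76 and 1.54 with offsets of 0.1 and 1, and 1.56 as a mean within replicate numbers.

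Over all genes, calls numbered 1699 higher and 1727 lower. They numbered 5987 higher and 412 lower with limma on TPM, which has no correction for composition, and 482 higher and 648 lower with the replicate block on 6 libraries. With 1 library left out they ranged from 694 to 2141 higher and from 809 to 2139 lower, with 864 and 971 without Ide-/- replicate 1, 785 and 809 without replicate 2, 694 and 853 without replicate 3, and 993 and 1101 without Ide+/+ replicate 4. Correlations of same-numbered samples across genotypes were -0.0173, -0.0189 and 0.0203, so same-numbered samples did not deviate together. Such correlations cannot show whether they were handled as pairs.

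Calls per list moved as follows. Clade A serpins had 2 higher without the filter (Serpina7 and Serpina3m) and 0 lower with limma on TPM, and 1 to 2 higher and 1 to 1 lower with 1 library left out, the second higher gene being Serpina3k without Ide-/- replicate 2. Other serpins had 1 higher with DESeq2 and with limma on TPM (Serpinc1 both times) and 2 without the filter (Serpinc1 and Serpinf2), with 0 to 1 higher when 1 library was left out. Promoter factors had 1 higher with DESeq2 (Cebpd), 2 higher (Cebpb and Cebpd) and 2 lower with limma on TPM, and 3 lower with the block, with 3 to 7 lower when 1 library was left out. Folding and export genes had 7 lower with DESeq2, 2 higher (Uggt1 and Erp29) and 0 lower with limma on TPM, and 2 lower with the block, with 1 to 5 lower when 1 library was left out. Acute-phase genes had 1 higher without the filter (Itih3), 2 lower with limma on TPM and 1 lower with the block, with 0 to 1 higher (Fgb, without Ide-/- replicate 2) and 2 to 6 lower when 1 library was left out. The cause of these moves was not tested. Target proteases had 0 higher in every fit, and 8 lower except for 7 with limma on TPM, 6 with the block, and 7 when any 1 Ide-/- library was left out.

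The hepatocyte share difference of 0.0126 percentage points was 0.00903 of non-acinar counts (exact permutation, adjusted p = 0.0918) and 0.00608 to 0.0169 with 1 library left out, where the smallest exact p is 0.0286 or 0.0476 before adjustment. Of the named genes, Serpina7, Serpini2, Serpinb1a, Ctrb1, Cela3b, Ctrl, Cela1, Onecut1, Gata4, Itih4 and Ide kept their calls in every fit. Agt, Foxa3 and Sel1l lost theirs with limma on TPM. Serpinb9, Cebpa, Stat3, Hnf4a, Os9, Edem2, Mcfd2, Il6st and Cp did so with limma on TPM and at least 1 library left out. Stat3 and Hnf4a also lost theirs with the replicate block, and Hnf4a without the filter. With the replicate block Crp (adjusted p = 0.0912), Serpinb9 (0.0542), Cebpa (0.124), Edem2 (0.0612), Mcfd2 (0.129), Il6st (0.0870) and Cp (0.0881) lost theirs, and Cp also did without the filter (0.104). Counting Ide+/+ replicates 2 and 3 as 1, an alternative added after the data were seen, gave 1359 higher and 1637 lower.

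Depth limits the low paralogs: outside Ide-/- replicate 1, each library held 20.01 to 66 Serpina1 counts, and shared reads are divided by the deposited estimate.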
